A study of Mus musculus with 17 samples.

Results

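Heparan sulfate is a sulfated sugar chain carried by membrane and matrix proteoglycans, and the 10 genes described here encode enzymes that build, sulfate or trim it. They were taken as the rows of the deposited count table whose gene name was Ext1, Ext2, Ndst1, Ndst2, Hs2st1, Hs6st1, Hs6st2, Hs3st1, Sulf1 or Sulf2, which makes 10 of 21931 genes. Hs6st2 was chosen by the comparison of cryoablation with control tumors itself, since it ranked 2nd by p among the 18 genes past the fold and p threshold in the lower direction. Its values in that comparison are therefore a description and carry no p. The other 9 genes were added for their function.

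The tumors were grown from MC38, a mouse colon cancer line of wild-type genotype that the labels also call mesenchymal, implanted under the skin of 6- to 8-week-old C57BL/6J mice. The cryoablation group had the tumor on one side frozen through a cryoprobe at day 7 under anesthesia, and the labels give no procedure for the control group. Tumors were labelled day 5, counted from the freezing, in both groups, and in the cryoablation group the one sequenced was contralateral to the frozen tumor. The labels gave 9 control and 8 cryoablation tumors, each a bulk sample of tumor cells and host cells together, and did not give which mouse each came from. Growth of 1 cell line under the skin limits these tumors as a model of colon tissue. Cdx2, a transcription factor of intestinal epithelium, had 0 counts in all 17 tumors. At these depths this allows a level of up to 3 counts. Without TMM normalization, 3 counts are 0.168 to 0.222 CPM (counts scaled to the library total). The CPM of the genes that follow use TMM library sizes, on which 3 counts are 0.258 CPM in cryoablation replicate 2. Krt20, Vil1 and Cdh17, other markers of differentiated colon epithelium, reached at most 0.482, 0.672 and 1.27 CPM. The other 5 of the 9 epithelial markers listed were present in part of the tumors or in all. Keratin genes Krt8, Krt18 and Krt19 reached at most 19.9, 15.1 and 31 CPM in control and 58.8, 54.8 and 91.6 CPM in cryoablation tumors, Epcam 6.96 and 8.67 CPM, and Cdh1 ranged from 5.31 to 26.2 CPM over both groups.

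The chain is polymerized by the exostosin pair Ext1 and Ext2 on a core protein. N-deacetylase/N-sulfotransferases (Ndst1, Ndst2) then start its modification, followed by 2-O-sulfation (Hs2st1), 6-O-sulfation (Hs6st1, Hs6st2) and 3-O-sulfation (Hs3st1), and the secreted sulfatases Sulf1 and Sulf2 later remove 6-O-sulfates from the finished chain outside the cell. The resulting pattern of sulfates sets which growth factors, chemokines and morphogens the chain binds, with fibroblast growth factors (FGF) as the classic case.

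The tumors had between 13524899 and 17898672 counts each. A set of 3 libraries stood apart. Cryoablation replicates 2, 4 and 5 lay at -25.5, -30.8 and -31.5 on the first principal component, which held 68.1% of the variance of the 500 most variable genes, whereas the other 14 tumors lay between -9.7 and 16.7. In the same 3 tumors log2 expression fell with gene length, with slopes of -1.005, -0.905 and -1.305 per 10-fold length, against -0.561 to 0.772 in the others. Among 12 lists of cell type markers, erythroid genes were higher in the cryoablation group at an unadjusted p under 0.05 for 4 of 4 tested, with summed levels of 6.16 to 74.6 CPM in control and 25.1 to 175 CPM in cryoablation tumors. Over all 13005 genes tested, 3.74% were higher and 1.17% lower at that p, and 0 passed after adjustment. At the same p, the neutrophil markers S100a8 and S100a9 (2 of 3 tested, log2 fold changes 1.34 and 1.61), Fabp4 of the adipocyte list (1 of 4, 0.86) and Krt10 of the epidermis list (1 of 3, 0.73) were higher, and the pericyte marker Rgs5 (1 of 5, -0.51) and the macrophage marker Adgre1 (1 of 8, -0.69) were lower. Of the adipocyte list 4 of 4 genes had a log2 fold change above 0, and Krt8, Krt18 and Krt19 had 1.65, 2.01 and 1.85 without passing. Other genes of these lists went the other way, with Csf3r of the neutrophil list at -0.51 and Cdh1 of the epithelial list at -0.35. The pericyte list had 3 genes below 0 and 2 above, and the macrophage list had 4 below and 4 above. The part of these markers and of the 3 libraries in the results below was not tested, and in bulk RNA fewer cells of a type and less RNA per cell cannot be told apart.

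Per gene length (FPKM, counts scaled to gene length and library total), the 10 genes spanned from 23 ± 5.85 for Sulf2 to 0.24 ± 0.148 for Hs3st1 (mean ± SD, n = 17 tumors). Sulf2, a secreted sulfatase, exceeded 81.7% of the genes tested in mean FPKM. It was followed by the polymerase Ext2 at 14.4 ± 1.71, the N-sulfotransferase Ndst1 at 11.4 ± 2.74, and the polymerase Ext1 at 10.1 ± 1.26. The 2-O-sulfotransferase Hs2st1 had 7.95 ± 1.86, the N-sulfotransferase Ndst2 7.75 ± 1.34 and the 6-O-sulfotransferase Hs6st1 5.23 ± 1.96 FPKM. Sulf1, the other sulfatase, stood at 2.12 ± 0.996. Hs6st2, the other 6-O-sulfotransferase, was near the floor of the family at 0.253 ± 0.193 FPKM, and Hs3st1, a 3-O-sulfotransferase, had about the same level. They exceeded only 3.74% and 3.44% of the genes tested.

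The order was read from neighbors, each pair compared within tumors on log2(FPKM + 0.1) by a two-sided permutation test with random signs (100000 resamples, adjusted over 9 pairs). In 6 of 9 pairs the upper gene differed from the lower beyond the spread between tumors. The largest step was from Sulf1 to Hs6st2, where Sulf1 was higher in 17 of 17 tumors by 2.73 ± 0.51 on the log2 scale (adjusted permutation p = 4.5e-05). Ndst1 and Ext1 did not differ beyond their spread (log2 difference 0.14 ± 0.32, adjusted permutation p = 0.119, Ndst1 higher in 11 of 17 tumors). Hs2st1 and Ndst2 differed by 0.02 ± 0.21 (adjusted permutation p = 0.853, 9 of 17 tumors), and Hs6st2 and Hs3st1 by -0.02 ± 0.81 (adjusted permutation p = 0.916, 8 of 17 tumors). With the 8 cryoablation tumors alone, 3 of the 9 pairs passed.

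**Figure D1:**
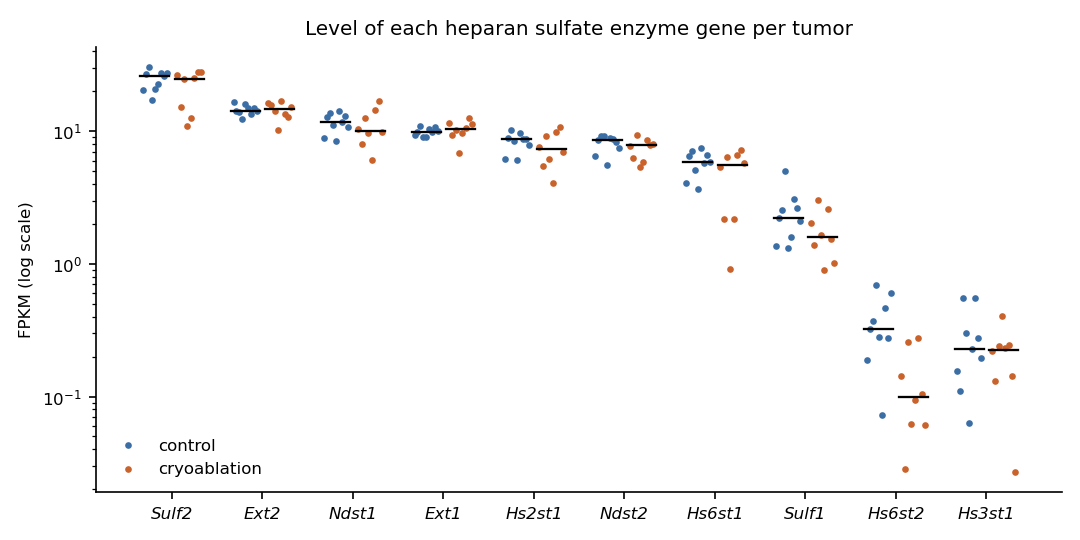
FPKM on a log axis of the 10 heparan sulfate enzyme genes, ordered by mean over 17 tumors, with each point 1 tumor (blue control, orange cryoablation) and bars at group medians. Hs6st2 and Hs3st1 lie below the 8 other genes, with means of 0.253 and 0.24 FPKM, and 3 cryoablation tumors fall below the rest for Hs6st1.

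Hs6st2 and Hs6st1 catalyze the same reaction, yet their mean FPKM of 0.253 and 5.23 lay far apart. Their promoter windows are printed because Hs6st2 was chosen by the comparison of the groups and Hs6st1 is its abundant counterpart. Hs6st1 itself did not pass in that comparison. Each covers 250 bases before to 50 after an annotated start in RefSeq (build GRCm38.p6), and capitals mark GC boxes (GGGCGG, or CCGCCC on the other strand), a motif of promoters without a TATA box. Hs6st2 has 2 annotated starts, chrX:51681553-51681852 (start 1) and chrX:51680428-51680727 (start 2), both on the minus strand, and Hs6st1 has 1, chr1:36068150-36068449 on the plus strand.
Hs6st2 start 1: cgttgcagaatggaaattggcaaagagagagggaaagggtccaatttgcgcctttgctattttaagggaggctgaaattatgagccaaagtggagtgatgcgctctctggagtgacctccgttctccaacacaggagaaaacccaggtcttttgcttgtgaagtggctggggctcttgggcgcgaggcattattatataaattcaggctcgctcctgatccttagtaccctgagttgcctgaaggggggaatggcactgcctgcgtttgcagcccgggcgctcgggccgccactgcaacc
Hs6st2 start 2: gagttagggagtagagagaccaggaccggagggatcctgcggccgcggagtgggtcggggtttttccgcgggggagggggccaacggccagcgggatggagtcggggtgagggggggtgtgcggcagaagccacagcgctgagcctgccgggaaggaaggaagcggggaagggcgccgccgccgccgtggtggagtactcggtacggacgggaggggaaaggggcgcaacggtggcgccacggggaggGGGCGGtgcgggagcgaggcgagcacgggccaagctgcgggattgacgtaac
Hs6st1: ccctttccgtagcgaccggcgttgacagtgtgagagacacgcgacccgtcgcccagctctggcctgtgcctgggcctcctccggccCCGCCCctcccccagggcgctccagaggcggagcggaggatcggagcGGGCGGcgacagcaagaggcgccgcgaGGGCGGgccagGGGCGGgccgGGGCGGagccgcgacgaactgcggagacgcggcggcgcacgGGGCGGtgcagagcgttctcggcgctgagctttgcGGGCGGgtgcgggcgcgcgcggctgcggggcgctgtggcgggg
The Hs6st1 window held 7 GC boxes, 47 CpG dinucleotides and 78.0% G or C. Start 2 of Hs6st2 held 1 GC box, 33 CpG and 71.7% G or C, while start 1 held 0 GC boxes, 12 CpG and 53.7% G or C. The letters TATAAA or TTTATA occurred 1 time in start 1 of Hs6st2, and in neither other window. Of 32851 windows of 300 bases, 35.7% held a GC box and 13.6% TATAAA or TTTATA, with medians of 7 CpG and 52.7% G or C. These matches describe letters, and the counts do not say which start was used. In the authors' table, whose positions match no build that could be named, Hs6st2 (ENSMUSG00000062184) lies on chromosome X from 50476089 to 50770733 and Hs6st1 (ENSMUSG00000045216) on chromosome 1 from 36107481 to 36145527.

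Cryoablation and control tumors were compared to ask which genes differ in a distant tumor after another one has been frozen. Hs6st2 was lower in the cryoablation group, and no other enzyme of the family passed the same threshold (absolute log2 fold change over 1 with unadjusted p under 0.05, edgeR quasi-likelihood test). Of the 9 members that passed the filter on low counts, 1 was called lower, the gene chosen for it, beside 0.138% of all 13005 genes tested, and 0 were called higher, beside 0.354%. Apart from Hs6st2, 6 members had a log2 fold change below 0 and 2 above, from -0.38 to 0.15. The median over the 9 members was -0.07, against -0.00878 over all genes tested. At an unadjusted p under 0.05, 1.17% of all genes were lower and 3.74% higher, and 0 of the 8 other members passed. After adjustment 0% of genes passed (edgeR, smallest adjusted p = 0.728), with 639 genes at an unadjusted p under 0.05. DESeq2 and limma voom also gave 0 adjusted calls, with 881 and 1312 genes at an unadjusted p under 0.05.

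Hs6st2 ranged from 9 to 80 counts in control tumors, with a median of 41, and from 3 to 35 in cryoablation tumors, with a median of 11.5. In CPM after TMM normalization, the lowest, median and highest values were 0.538, 2.38 and 5.18 in control and 0.258, 0.874 and 1.99 in cryoablation tumors. Every cryoablation tumor (8 of 8) had less Hs6st2 than the median control tumor, and 7 of 9 control tumors had more than the highest cryoablation tumor. The groups still overlapped, since control replicate 6 had 0.538 CPM and 2 of 8 cryoablation tumors alone lay below it. The mean was 2.73 ± 1.43 CPM (SD, n = 9) in control and 0.995 ± 0.632 CPM (n = 8) in cryoablation tumors, a log2 fold change of -1.42 ± 0.41 (SE). Without cryoablation replicates 2, 4 and 5 the log2 fold change was -1.14, and with any 1 tumor left out it ranged from -1.65 to -1.26. Leaving out control replicate 4, the tumor with the highest value, gave -1.26. Just outside the threshold no member came close: the next lowest was Sulf1 at -0.38.

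Hs6st1, the abundant 6-O-sulfotransferase, showed a different pattern. It ran from 288 to 705 counts in control tumors (median 546) and from 74 to 633 in cryoablation tumors (median 478). Its CPM was 22.1, 31.3 and 38.9 at the lowest, median and highest control tumor and 5.78, 30.3 and 38.1 in the cryoablation group. Cryoablation replicates 2, 4 and 5 had 14.2, 5.78 and 15.9 CPM and were the 3 tumors below the control range, whereas the other 5 lay inside it. The log2 fold change was -0.29 ± 0.27 (edgeR adjusted p = 0.757, exact permutation p = 0.162, 95% interval -0.86 to 0.28). It turned to 0.10 without those 3 tumors, so its direction rested on them. Across all 17 tumors Hs6st2 made up 6.09 ± 3.25% of the summed FPKM of the 6-O-sulfotransferases in control and 3.08 ± 1.82% in cryoablation tumors, the third family gene Hs6st3 being at 0 to 1 counts. This share carries no test because Hs6st2 enters it.

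Among the polymerases, Ext1 had the smallest p of the 8 members tested apart from Hs6st2. Its control tumors lay within 69.8 to 81.4 CPM, with a median of 78.9, and its cryoablation tumors ranged more widely from 62.4 to 103 CPM, with a median of 89.2. In 5 of 8 cryoablation tumors Ext1 was above the control range, and in replicate 4 it was below. The log2 fold change of 0.15 ± 0.09 did not pass (edgeR adjusted p = 0.728, exact permutation p = 0.118, 95% interval -0.04 to 0.33). Without cryoablation replicate 4 it was 0.20 and passed an unadjusted p under 0.05 in edgeR. Its partner Ext2 ranged from 86.5 to 129 CPM (median 99) in control and from 84.7 to 162 CPM (median 104) in cryoablation tumors, where replicates 5 and 2 had the highest values of 162 and 135 CPM. Its log2 fold change was 0.10 ± 0.13 (edgeR adjusted p = 0.797, exact permutation p = 0.557, 95% interval -0.18 to 0.37), and -0.04 without cryoablation replicates 2, 4 and 5. Ext1 made up 40.7 ± 2.73% of the FPKM of the pair in control and 41.6 ± 4.11% in cryoablation tumors (exact permutation p = 0.597, two-sided).

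The N-sulfotransferases and the 2-O-sulfotransferase had nearly equal means in both groups. Ndst1 had 93 ± 11.9 CPM in control and 92.5 ± 21.2 CPM in cryoablation tumors, with ranges of 76.5 to 111 and 66.1 to 133 and a log2 fold change of -0.01 ± 0.12 (95% interval -0.27 to 0.26). Ndst2 had 35.3 ± 3.97 and 34.4 ± 3.23 CPM, a log2 fold change of -0.04 ± 0.09 (95% interval -0.22 to 0.15). Hs2st1 had 65.6 ± 7.71 and 62.6 ± 13.2 CPM, a log2 fold change of -0.07 ± 0.12 (95% interval -0.32 to 0.18). The adjusted edgeR p values were 0.983, 0.882 and 0.832 (exact permutation p = 0.816, 0.672 and 0.473), and these intervals bound each difference well inside the fold threshold. Ndst2 supplied 40.9 ± 2.14% of the FPKM of the N-sulfotransferase pair in control and 40.9 ± 5.49% in cryoablation tumors (exact permutation p = 0.987).

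Hs3st1 did not pass the filter on low counts, with 2 to 22 counts in control and 1 to 13 in cryoablation tumors, medians 8 and 7. Its log2 CPM differed by -0.19 (exact permutation p = 0.619, two-sided, smallest possible 4.11e-05), and its ranges of 0.153 to 1.15 and 0.0597 to 1.02 CPM overlapped almost entirely. At this depth a modest difference in Hs3st1 was not detectable. Of the 6 other 3-O-sulfotransferase genes, only Hs3st3b1 passed the filter, and Hs3st2 and Hs3st4 had 0 counts in all tumors.

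The sulfatases act on the same 6-O-sulfates that Hs6st1 and Hs6st2 add. Sulf1 ranged from 16.1 to 53.9 CPM in control tumors (median 23.9) and from 11.5 to 31.2 CPM in cryoablation tumors (median 19.8). Control replicate 4 alone held the 53.9 CPM, and the next highest control tumor had 32.5 CPM. The log2 fold change was -0.38 ± 0.25 (edgeR adjusted p = 0.728, exact permutation p = 0.2, 95% interval -0.90 to 0.15), and -0.18 without control replicate 4. Sulf2 ranged from 96.8 to 162 CPM (median 144) in control and from 73 to 162 CPM (median 135) in cryoablation tumors, with replicates 4 and 5 lowest in the latter at 73 and 96.7 CPM. Its log2 fold change of -0.12 ± 0.15 (edgeR adjusted p = 0.789, exact permutation p = 0.354, 95% interval -0.43 to 0.19) turned to 0.10 without cryoablation replicates 2, 4 and 5. Sulf1 made up 9.22 ± 5.14% of the FPKM of the sulfatase pair in control and 8.03 ± 3.1% in cryoablation tumors (exact permutation p = 0.675).

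**Figure D2:**
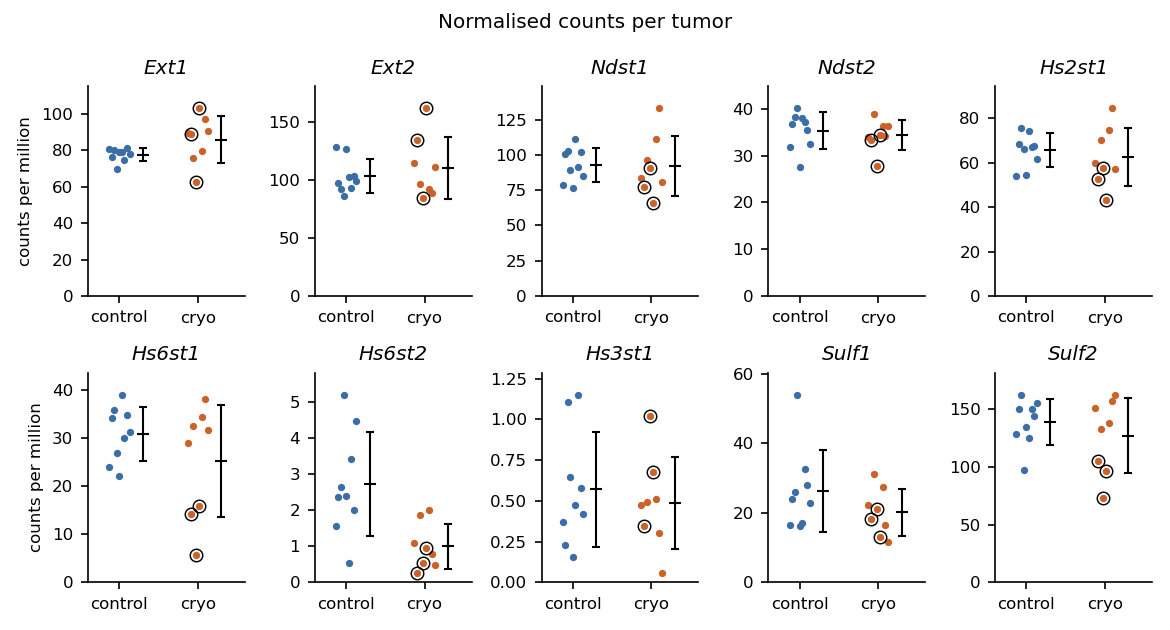
CPM after TMM normalization in each tumor, 1 panel per gene with its own axis from 0, for 9 control and 8 cryoablation (cryo) tumors, with mean ± SD at the side and cryoablation replicates 2, 4 and 5 ringed. All 8 cryoablation tumors lie below the control median of 2.38 for Hs6st2, and the 3 ringed tumors are the lowest for Hs6st1.

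The spread within groups also differed between the enzymes. Hs6st2 had the largest of the 10, an SD of 0.87 on the log2 scale within groups, followed by Hs3st1 at 0.75, Hs6st1 at 0.66 and Sulf1 at 0.53. Single tumors weigh in these values. The tumor farthest from its group mean was control replicate 6 for Hs6st2 (-1.9) and cryoablation replicate 4 for Hs6st1 (-1.89). Ext1 and Ndst2 varied least, at 0.16 each.

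With group means removed, members were compared pairwise over the 17 tumors in log2 CPM (45 pairs, two-sided permutation within groups, 100000 resamples). After adjustment 3 pairs passed with a positive and 2 with a negative Pearson's r. Hs2st1 and Ndst1, the early sulfation steps, moved most closely together (r = 0.96, rho = 0.96, adjusted permutation p = 0.00045 for both). The correlation was 0.94 in control and 0.97 in cryoablation tumors, 0.93 without the 2 tumors farthest from the median and 0.88 after each tumor's trend over gene length was removed. Both genes are long, 8209 and 8279 bases in the authors' table, and across tumors they followed the slope of expression on gene length with r of 0.93 and 0.85, given as a description. Ext2 moved against them, with r = -0.81 and rho = -0.70 to Hs2st1 (adjusted permutation p = 0.0103 and 0.0479) and r = -0.75 and rho = -0.73 to Ndst1 (0.0176 and 0.0382). Without the length trend these 2 correlations were -0.62 and -0.37, and without the 2 farthest tumors -0.69 and -0.64.

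Hs6st1 moved with Sulf2 (r = 0.84, rho = 0.75, adjusted permutation p = 0.0143 and 0.0479), the enzyme that adds and the enzyme that removes the same sulfate. That relation rested on the 3 libraries that stood apart, since r was 0.33 without them, against 0.69 without the 2 tumors farthest from the median. Hs6st1 also moved with Ndst2 (r = 0.66, adjusted permutation p = 0.0143), where rho was 0.50 and its adjusted permutation p 0.0759, and r was 0.49 without the 2 farthest tumors. Hs6st2 and Sulf1 had r = 0.65 and rho = 0.65, which missed the threshold after adjustment (permutation p = 0.0606 and 0.0519). Their r was 0.67 in control, 0.62 in cryoablation tumors, 0.67 without the 2 farthest tumors and 0.76 without cryoablation replicates 2, 4 and 5. Hs6st2 and Hs6st1 had r = 0.24. By rho only, Hs6st1 passed with Hs2st1 (rho = 0.75, adjusted permutation p = 0.0374) and with Ndst1 (rho = 0.66, adjusted permutation p = 0.0479). Their r was 0.61 and 0.51, and 0.00 and -0.13 with the gene length trend removed.

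**Figure D3:**
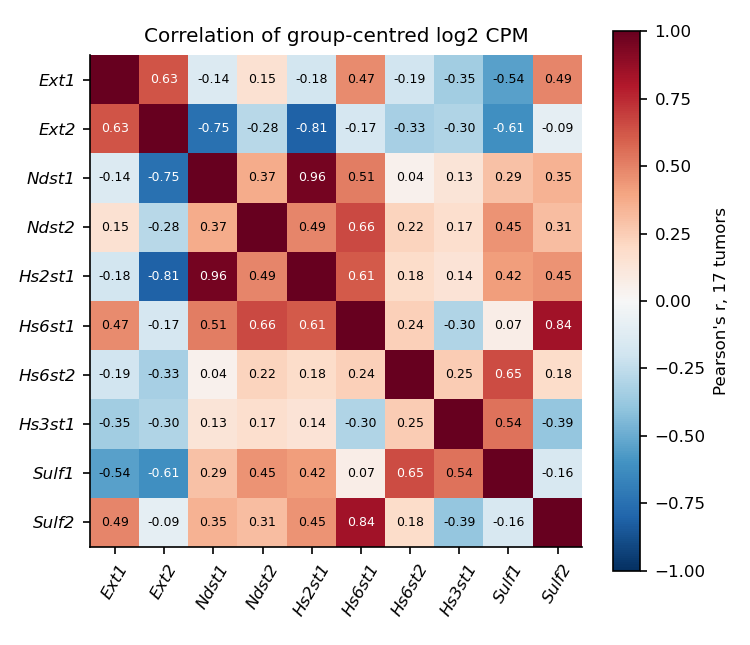
Pearson's r between each pair of the 10 genes over 17 tumors, from log2 CPM with group means removed, in red where positive and blue where negative. Hs2st1 and Ndst1 have r = 0.96, Ext2 is negative to both (-0.81 and -0.75), and Hs6st2 is highest with Sulf1 (0.65).

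Each member was also set against the mean log2 CPM of marker genes of fibroblasts (10 genes), endothelium (8) and macrophages (8), again with group means removed. The scores themselves differed little between groups, by -0.16 for fibroblasts (exact permutation p = 0.254), -0.19 for endothelium (0.335) and -0.10 for macrophages (0.696). Of 30 relations, 7 passed after adjustment, and 2 of these 7 also without cryoablation replicates 2, 4 and 5, both of Sulf1. With each tumor's gene length trend removed, 3 of the 7 passed, the 2 of Sulf1 and that of Ndst1 with macrophages. The adjusted permutation p of the other 4 was then 0.11 for Hs6st2 and 0.36 for Ndst2 with fibroblasts, 0.105 for Ext2 with endothelium and 0.0621 for Hs2st1 with macrophages. With that trend removed 2 others passed, Ndst1 with fibroblasts, whose r went from -0.03 to -0.65 (adjusted permutation p = 0.0112), and Sulf1 with macrophages, from 0.23 to 0.70 (0.0291). Sulf1 followed the endothelial score with r = 0.79 and rho = 0.83 (adjusted permutation p = 0.0036 and 0.0015), and r was also 0.79 without the 2 tumors farthest from the median score. It followed the fibroblast score with r = 0.76 (adjusted permutation p = 0.0044), with rho of 0.59 (0.0615) and r of 0.60 without the 2 farthest tumors. Both scores were highest in control replicate 4, the tumor with the most Sulf1.

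Hs6st2 followed the fibroblast score with r = 0.62 (adjusted permutation p = 0.0373), but rho was 0.51 (0.104) and r without the 2 farthest tumors 0.54. Without cryoablation replicates 2, 4 and 5 its r was 0.66 with an adjusted permutation p of 0.0711, so that this relation passed only under part of the settings tried. Ndst2 had r = 0.65 with the fibroblast score (adjusted permutation p = 0.0373), rho of 0.63 (0.0615) and r of 0.59 without the 2 farthest tumors. The 2 genes of the early sulfation steps were low where macrophage markers were high, with r = -0.79 and rho = -0.70 for Ndst1 (adjusted permutation p = 0.0044 and 0.0375) and r = -0.72 and rho = -0.69 for Hs2st1 (0.0245 and 0.0399). Without the 2 farthest tumors r was -0.79 and -0.74. In 14 tumors, leaving out the 3 apart, these relations had r of -0.70 and -0.53 and adjusted permutation p of 0.0655 and 0.133. Hs6st1 had the strongest rank correlation with the macrophage score (rho = -0.81, adjusted permutation p = 0.0036), while its r of -0.57 did not pass (adjusted permutation p = 0.0951). The r of Hs6st1 was -0.61 in the 14 tumors and -0.32 with the gene length trend removed. Ext2 fell with the endothelial score (r = -0.61, rho = -0.59, adjusted permutation p = 0.0245 and 0.0433), with r of -0.57 without the 2 farthest tumors. Summed fibroblast markers ranged from 7870 to 14100 CPM in control and 5410 to 10400 CPM in cryoablation tumors, and 0 of 10 differed at an unadjusted p under 0.05. The part of tumor composition in any of these values was not tested.

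**Figure D4:**
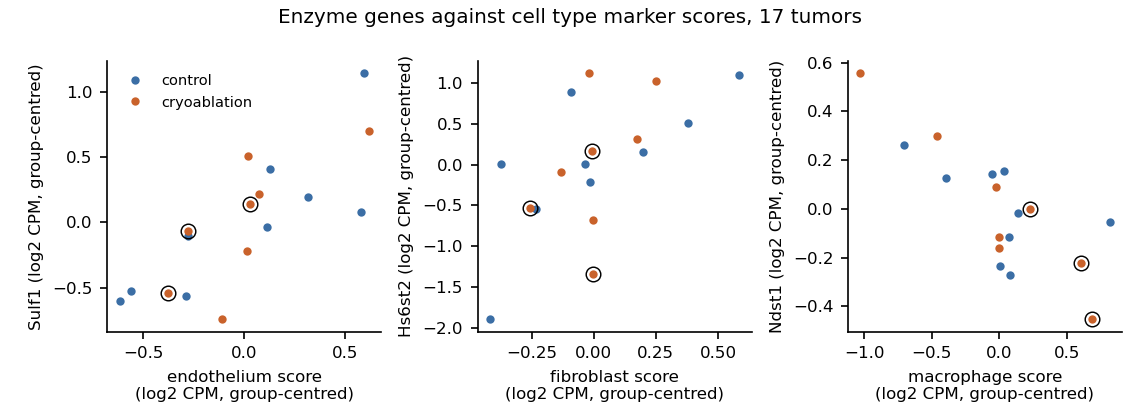
Log2 CPM of Sulf1, Hs6st2 and Ndst1 against the endothelium, fibroblast and macrophage scores, all with group means removed, for 9 control (blue) and 8 cryoablation (orange) tumors, cryoablation replicates 2, 4 and 5 ringed. Sulf1 rises with the endothelium score (r = 0.79), Hs6st2 with the fibroblast score (r = 0.62), and Ndst1 falls with the macrophage score (r = -0.79).

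The genes whose pattern over the 17 tumors was most like that of Hs6st2, of the 13005 tested and with group means removed, were Ddah1, which breaks down inhibitors of nitric oxide synthase (r = 0.85), Dact1, a modulator of Wnt signaling (0.81), the sorting receptor Sort1 (0.79), the GABA receptor subunit Gabra3 (0.78) and the sphingomyelinase Smpd3 (0.75). These are the highest of many correlations and carry no test. Without cryoablation replicates 2, 4 and 5 they were 0.89, 0.79, 0.88, 0.83 and 0.69. Their log2 fold changes between the groups were -0.42, -1.09, -0.47, -0.56 and -0.38. Hs6st1 was most like Carm1, an arginine methyltransferase (r = 0.99), and Cdc42bpb, a kinase (0.98). Hs2st1 was closest to Tanc1 and Usp31 (0.98 each), Ndst1 to Med13 (0.98) and Ago2 (0.97), and Ext2 to Cog4 (0.99) and Kars (0.98). Sulf1 was closest to Sidt1 (0.93) and Chl1 (0.92), Sulf2 to Cpq (0.94) and Cited2 (0.93), and Ext1 to Ptpn23 (0.92) and Man2c1 (0.91). Ndst2 was closest to Vav3 and to Cd8a, the T cell coreceptor (0.92 each), and Hs3st1 to the secreted proteins Mmp3 (0.85) and Ccn2 (0.81). Without cryoablation replicates 2, 4 and 5 some of these were lower, with Cdc42bpb at 0.85, Cpq 0.79, Cited2 0.76, Ptpn23 0.73 and Man2c1 0.69. Others stayed close, such as Tanc1 and Usp31 at 0.97 each.

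The wider pathway was described by 7 lists of 93 genes, of which 75 passed the filter. Of these, 46 had a log2 fold change below 0 and 29 above, with a median of -0.06, while 52% of all genes tested lay below 0. At an unadjusted p under 0.05, 0 of 75 were lower and 1 of 75 was higher, beside the 1.17% and 3.74% over all genes. That gene was Sdc4, syndecan-4, a transmembrane heparan sulfate proteoglycan. It had 203 ± 21 CPM in control and 250 ± 62.5 CPM in cryoablation tumors, a log2 fold change of 0.30 ± 0.13 (edgeR adjusted p = 0.728), and its ranges of 183 to 241 and 179 to 339 overlapped. Without cryoablation replicates 2, 4 and 5 it was 0.14. None of the 75 genes passed the fold threshold.

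Of the other heparan sulfate enzymes 7 of 15 could be tested, 5 below and 2 above 0. The lowest was Hs3st3b1, a 3-O-sulfotransferase, with 2.11 ± 1.7 CPM in control and 1.37 ± 0.751 in cryoablation tumors (log2 fold change -0.60 ± 0.41, edgeR adjusted p = 0.728), and -0.21 without control replicate 4. The highest was Extl1, an exostosin-like glycosyltransferase, with 5.99 ± 1.36 and 7.81 ± 2.22 CPM (0.38 ± 0.18, edgeR adjusted p = 0.728). Among 15 genes for the linker sugar and the sulfate donor, 7 were below and 8 above 0. They ran from Papss2, a synthase of the sulfate donor PAPS (-0.79 ± 0.41, edgeR adjusted p = 0.728), to B3gat3, which adds the last linker sugar (0.21 ± 0.18, edgeR adjusted p = 0.745). Papss2 had 5.42 ± 4.29 CPM in control and 3.12 ± 1.61 in cryoablation tumors, with 1 control tumor at 15.8, and its log2 fold change was -0.41 without control replicate 4. B3gat3 was at 0.10 without cryoablation replicate 4.

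Of 13 core protein genes tested, 9 were below and 4 above 0, from the glypican Gpc4 (-0.44 ± 0.38, edgeR adjusted p = 0.747) to Sdc4, and Gpc4 was at -0.22 without control replicate 4 and -0.68 without cryoablation replicate 3. Of 9 lysosomal enzymes that degrade the chain, 6 were below and 3 above, with the galactosidase Glb1 highest (0.21 ± 0.17, edgeR adjusted p = 0.739). Of 14 enzymes of the related chondroitin and dermatan chains, 11 were below and 3 above, from Chpf2 (-0.44 ± 0.29, edgeR adjusted p = 0.728) to Chst12 (0.14 ± 0.13, edgeR adjusted p = 0.757). Chpf2 was at -0.01 without cryoablation replicates 2, 4 and 5. FGF ligands and receptors counted 4 below and 3 above, from Fgf2 (-0.20 ± 0.22, edgeR adjusted p = 0.772) to Fgfr3 (0.35 ± 0.32, edgeR adjusted p = 0.754). Genes that FGF signaling is known to induce counted 4 below and 6 above, from Spred1 (-0.10 ± 0.11, edgeR adjusted p = 0.781) to the transcription factor Etv4 (0.25 ± 0.14, edgeR adjusted p = 0.728).

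**Figure D5:**
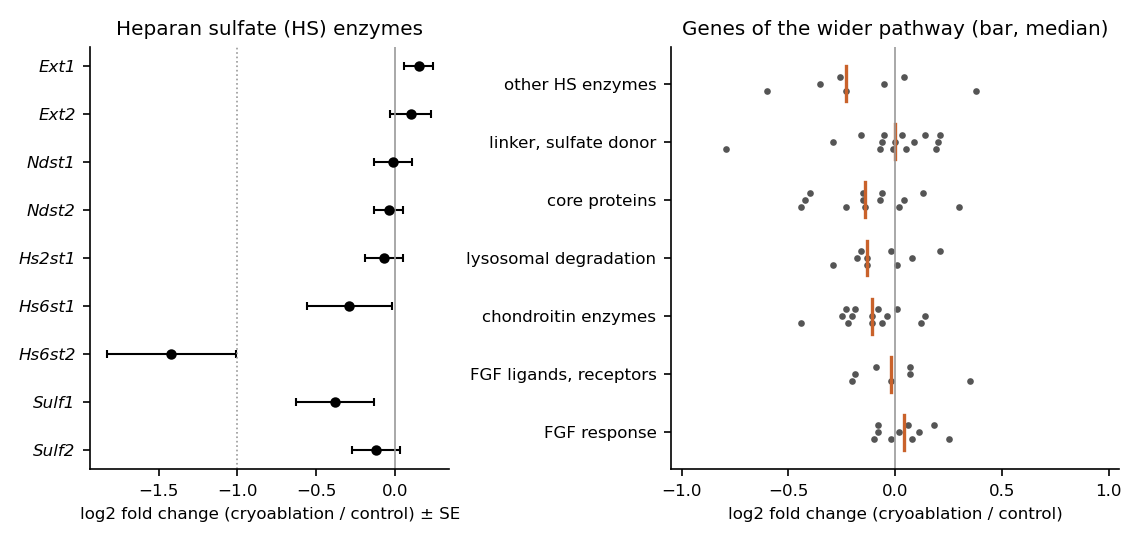
Log2 fold change of cryoablation against control tumors (9 control, 8 cryoablation), at left for the 9 enzyme genes tested with bars of 1 SE and a dotted line at -1, at right for 75 genes of the wider pathway with each list's median as a bar. Hs6st2 lies at -1.42, the other 8 enzymes between -0.38 and 0.15, and the pathway genes between -0.79 and 0.38.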

How the data were processed

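Bulk RNA of 17 distant MC38 tumors (9 control, 8 cryoablation) was analysed, grouped by the sample labels. The authors deposited a count of reads for each of 21931 genes, without normalization, and FPKM, which equal the count over gene length and total count in 100% of values (relative tolerance 1e-06). The submitters' processing notes name GRCm38 (mm10); positions in the table equal GENCODE M21 for 512 of 21827 genes, so no build is given for them. Aligner, counter and strandedness are not given in the sources used here.

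Counts were filtered by filterByExpr (13005 genes tested), TMM-normalized and tested with edgeR 4.0.16 in R 4.3.3 (quasi-likelihood, group only), with Benjamini-Hochberg adjustment over all genes. CPM use TMM library sizes and log2 CPM a prior count of 2. Single values and shares were compared by exact permutation over 24310 splits with scipy 1.17.1. Alternatives were DESeq2 1.42.0, limma 3.58.1 voom, other factors and filters, a replicate block, offsets for gene length and GC, and leaving out tumors. The fits were tested on simulated data.

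Total counts were 13524899 to 17898672 per tumor. Scaled to these totals without TMM factors, 3 counts equal 0.168 to 0.222 CPM. With TMM library sizes, the 3 counts of Hs6st2 in cryoablation replicate 2 equal 0.258 CPM. Such floors cover counting error only. The p values measure the spread between these tumors. The members and all lists were chosen with earlier results of these data known. Named genes are the 10 members, pathway genes with an unadjusted p under 0.05 or the lowest or highest fold change of their list, the 5 genes most like Hs6st2 and the 2 most like each other member. A gene that this rule names is not reported here. Same-numbered tumors were not treated as pairs, because the labels give no pairing. Their deviations correlated between -0.51 and 0.642, over 0.1 in 4 of 8 comparisons, which does not settle whether they were paired. Trac, Trbc2 and Loricrin were not found in the table under these names. Promoter windows came from RefSeq (GRCm38.p6), which held 7 of the 10 members.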

Additional observations from a re-analysis of the deposited data

Results flagged for a closer look

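In groups of 8 or 9 tumors, a tumor was marked where its gap to the nearest other tumor exceeded Dixon's critical share of the group's range in log2 CPM. Of 26 groups checked (10 genes and 3 cell type scores in each of 2 groups), 3 were marked, and chance marks about 1 in 20 groups. Ndst2 was set apart in cryoablation replicate 4, the lowest of its group with 356 counts and 27.8 CPM, with a gap of 0.535 of the range. Sulf2 was set apart in control replicate 4, the lowest of its group with 1496 counts and 96.8 CPM, with a gap of 0.498. The endothelium score was highest in cryoablation replicate 3, with a gap of 0.548.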

How the results depend on the processing

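As a description, the log2 fold change of Hs6st2 ranged from -1.65 to -1.14 over 27 alternatives. Numbers of genes called moved from 64 to 432 without a filter, 33 with the replicate block, 39 with gene length offsets, 39 with gene length and GC offsets (added after the data were seen), and 34 to 165 with 1 tumor left out. Of the tumors left out, cryoablation replicate 3 gave 165, control replicate 1 gave 122, control replicate 5 and cryoablation replicate 6 gave 120 each, cryoablation replicate 7 gave 106, and cryoablation replicates 2 and 5 gave 39 and 34. Members with an unadjusted p under 0.05 numbered 3 with voom (Hs6st2, Ext1, Sulf1), 2 with length offsets and 2 without cryoablation replicates 2, 4 and 5 (Hs6st2, Ext1), and 1 to 2 with 1 tumor left out (2 without cryoablation replicate 4). These counts include Hs6st2, which was chosen by this comparison. Over all 13005 genes tested, that p was reached by 639 in the main fit, 1312 with voom, 881 with DESeq2 and 653 with RLE factors. It was reached by 446 with the replicate block, 707 with length offsets and 730 with length and GC offsets. Without a filter it was 992 of 17819 genes, and without cryoablation replicates 2, 4 and 5 it was 325 of 13250. Pathway genes at that p numbered 2 with RLE factors, 2 with DESeq2, 9 with voom, 3 without a filter, 4 with the replicate block, 3 with length and GC offsets, 2 without cryoablation replicates 2, 4 and 5, and 0 to 5 with 1 tumor left out (0 without control replicates 8 or 9 or cryoablation replicate 2, 5 without control replicates 1 or 5 or cryoablation replicate 3, 2 to 4 without control replicate 3 or cryoablation replicates 6, 7 or 8). Neighbors in the order of levels that passed numbered 3 in cryoablation tumors alone. Relations to cell type scores that passed numbered 2 without cryoablation replicates 2, 4 and 5 and 3 to 10 with 1 tumor left out (3 without cryoablation replicate 5, 4 without control replicate 4 or cryoablation replicate 7).

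Without cryoablation replicates 2, 4 and 5 the log2 fold change changed sign for Hs6st1 (0.10), Hs2st1 (0.07), Ndst1 (0.11), Ndst2 (0.02), Sulf2 (0.10), Ext2 (-0.04), B3gat3 (-0.19), Glb1 (-0.14), Chst12 (-0.04), Fgf2 (0.11), Spred1 (0.06) and Etv4 (-0.04). With length offsets it did for Hs2st1 (0.02), Ndst1 (0.08) and Ndst2 (0.01), and with length and GC offsets for Hs2st1 (0.03) and Ndst1 (0.08). With 1 tumor left out, Ndst1 ranged from -0.11 to 0.05, Ndst2 from -0.07 to 0.00 and Ext2 from -0.00 to 0.15. Hs6st2 exceeded Hs3st1 by 0.01 with a pseudocount of 1 and by 0.33 in control tumors, and Hs2st1 minus Ndst2 was -0.01 in cryoablation tumors. Values that kept their sign but moved by over 1.5 times without cryoablation replicates 2, 4 and 5 included those of Chpf2 (-0.01), Hs3st3b1 (-0.37) and Sdc4 (0.14). Without control replicate 4 they included those of Hs3st3b1 (-0.21), Papss2 (-0.41), Gpc4 (-0.22) and Sulf1 (-0.18). Without cryoablation replicate 4 they included those of Sulf2 (-0.04), Hs6st1 (-0.14), Chpf2 (-0.29), B3gat3 (0.10) and Etv4 (0.15). Without cryoablation replicate 5 they included those of Sulf2 (-0.07), Hs2st1 (-0.01), Glb1 (0.04), Chst12 (0.07) and Spred1 (-0.03). With 1 tumor left out, Fgf2 ranged from -0.32 to -0.09 and Fgfr3 from 0.21 to 0.46. The cause was not tested.

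The replicate block changed no call of the 8 other members tested, and Hs6st2 was at -1.33. Hs6st2 rests on 3 to 80 counts and Hs3st1 on 1 to 22, which limits what differences can be seen in either.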
